A study of Mus musculus with 14 samples.

Results

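The messages of 10 immediate early genes were followed in splenic regulatory T cells of mice: Fos, Fosb, Fosl2, Jun, Junb, Jund, Atf3, Ier2, Ier5 and Myc. They were taken by name out of 30284 genes with a transcript in the deposited tables, and their estimated reads were summed over transcripts. Regulatory T cells, the CD4 T cells that restrain immune responses, were sorted from spleen by the Foxp3 and YFP signals of mice labelled C57/B6, and RNA was sequenced from libraries of 1 or 2 animals. The controls were Tln1wt/wtFoxp3cre/wt and the knockout mice Tln1fl/flFoxp3cre/wt, so both groups carried 1 Cre allele driven by Foxp3 and only the second had floxed alleles of Tln1, the gene of the integrin activator talin-1. The sources used here do not give the age of the mice. The 14 samples made up 4 control units and 3 units labelled as knockout, each of 2 samples that were added together, and no label says which animals stand behind a unit.

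Immediate early genes are switched on within minutes of a signal, without new protein synthesis, and their messages decay quickly. The FOS proteins pair with the JUN proteins through leucine zippers to form AP-1, a transcription factor that acts with NFAT and other factors downstream of the T cell receptor. ATF3 is a stress-induced zipper protein of the neighbouring ATF family, IER2 and IER5 are small nuclear proteins encoded by early genes, and MYC, which pairs with MAX, drives cell growth. In lymphoid tissue, early genes are also known to be induced while cells are being isolated and sorted.

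The promoters of Fos, Fosb, Jun and Junb are shown as 4 of the genes with similar patterns over the units. Fos, Fosb and Junb hold the short core TGACG of the cyclic AMP response element within the bases printed. Jun holds no TGACG there but the variant TGACATCA. This variant was searched as a known JUN site and had no match in the other genes searched, so it is no shared feature. Atf3 and Fosl2 had similar patterns too (Pearson's r with Jun 0.965 and 0.961, beside 0.971 for Junb) and are not shown. Fosl2 had no match of the letters searched. A link between these letters and the pattern was not tested. RefSeq promoters were found for 8 of the 10 genes (build GRCm38.p6), with 1 start for each. The starts used for Atf3 and Fosl2 lie inside the annotated gene. That used for Jund lies before its annotated gene, which begins at 70698949 on chromosome 8. Any other start was not searched. The 130 bases before the transcription start are printed from 5′ to 3′ on the gene's own strand, with TGACG, TGACATCA and TATAAA in capitals.
Fos (chr12:85473760-85473889, plus strand): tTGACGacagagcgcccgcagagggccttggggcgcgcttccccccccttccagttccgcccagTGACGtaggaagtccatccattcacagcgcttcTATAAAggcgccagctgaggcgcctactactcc
Fosb (chr7:19310046-19310175, minus strand): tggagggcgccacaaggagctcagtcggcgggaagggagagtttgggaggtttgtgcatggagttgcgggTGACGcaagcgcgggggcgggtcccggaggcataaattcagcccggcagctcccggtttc
Jun (chr4:95052223-95052352, minus strand): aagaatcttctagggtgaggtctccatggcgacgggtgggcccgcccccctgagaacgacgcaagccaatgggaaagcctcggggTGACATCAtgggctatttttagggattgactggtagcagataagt
Junb (chr8:84978749-84978878, minus strand): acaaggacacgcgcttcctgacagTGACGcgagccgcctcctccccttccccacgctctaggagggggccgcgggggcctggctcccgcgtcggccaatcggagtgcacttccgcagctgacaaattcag

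The core TGACG, searched on both strands over the 250 bases before the start, lay 66 and 129 bases before the start of Fos, 60 before that of Fosb, 106 before that of Junb and 7 before that of Atf3. It was found in 4 of the 8 genes and in 17.8% of 32851 promoters of the same length. The variant TGACATCA lay 45 bases before the start of Jun and was found in 2.93% of promoters. The full element TGACGTCA, the AP-1 element TGANTCA and the CArG box, at which serum response factor binds, had no match in the window of any of the 8 genes, against 1.55%, 6.75% and 1.47% of promoters. TATAAA was found in Fos among the 8 and in 12.4% of promoters. These are matches of letters only. Bases further than 250 before the start were not searched, so a missing match does not show that a gene lacks the element.

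The units held 13017008 to 39706502 estimated reads in the controls and 39314880 to 56772674 in the knockout-labelled group. Tln1 was not lower under the knockout label: it was at 543 to 847 CPM (reads scaled to a common library size after TMM normalization) in the control units and at 788 to 1014 CPM in the others. Which exons lie between the loxP sites is not known from the sources used here, so this total checks the labels only weakly and every direction below rests on them. Foxp3 was at 324 to 478 CPM and at 370 to 514 CPM. Messages of other cells were higher under the knockout label. Summed over the list, monocyte and macrophage markers were at 8.11 to 72.2 TPM (scaled by transcript length as well as library size) in the control units and at 137 to 350 TPM in the others. Of 7 regulatory T cell markers, Foxp3 among them, 4 fell at an edgeR adjusted p below 0.05, beside 6.52% of all genes. These 4 were Il2ra, Ikzf2, Nrp1 and Izumo1r. Of 6 T cell markers 1 fell, and the median log2 fold change of that list was -0.34. B cell markers were at 18.4 to 42.8 and 86.4 to 184 TPM, and neutrophil markers at 0.686 to 25.8 and 345 to 1003 TPM. Markers of NK and CD8 T cells were at 20.1 to 26.3 and 47.6 to 79.7 TPM. Erythroid and platelet markers summed to 10.2 to 69.7 TPM in the controls. Their sum was 348 TPM in the first knockout-labelled unit, 98.7 in the second and 3797 in the third, which also had the highest Fos; their part in that value was not tested. All genes of these lists had reads in both groups.

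Ier2 and Fosl2 rose under the knockout label, and the other 8 genes did not pass the test. All 10 genes were measured and passed the filter on low counts. Of the 15775 genes tested with edgeR, 13.6% changed at an adjusted p below 0.05, 7.07% upwards and 6.52% downwards under the knockout label; of the 10 early genes 2 were higher and 0 lower. For 7 of the 10 genes (Fos, Fosb, Fosl2, Jun, Junb, Atf3 and Ier2) every knockout-labelled unit was above every control unit, a separation seen in this direction for 16.7% of all genes. The median log2 fold change of the 10 genes was 1.67, beside 0.06 over all genes. In bulk RNA, a change in the make-up of the sorted cells and a change of RNA per cell cannot be told apart.

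**Figure D1:**
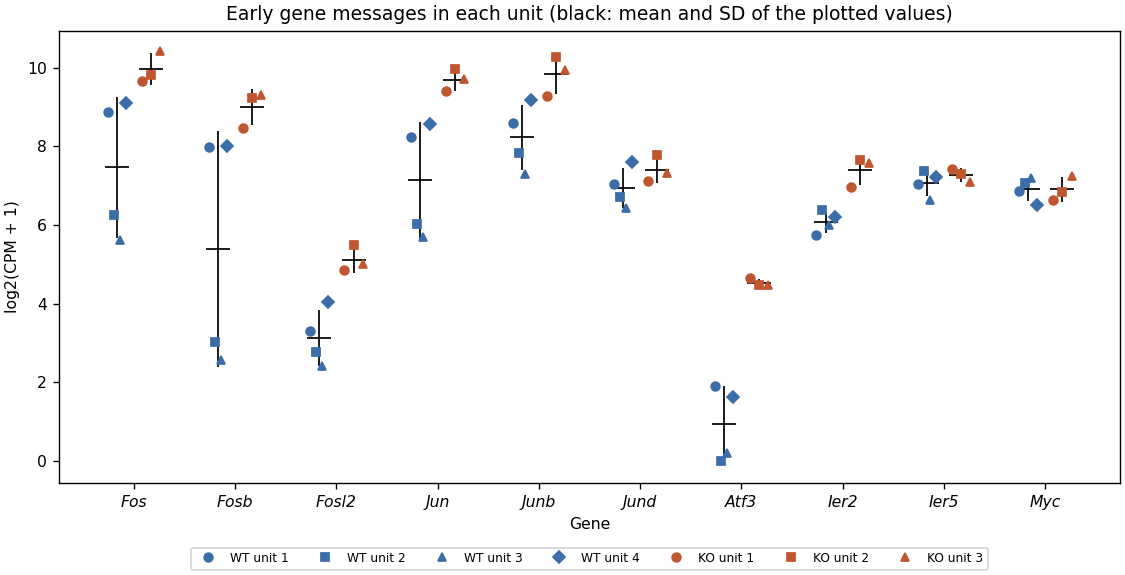
Level of each early gene as log2(CPM + 1) in the 4 control units (blue, WT) and the 3 knockout-labelled units (orange, KO); symbols mark the unit and black bars the mean and SD of the plotted values. Control units 2 and 3 sit far below control units 1 and 4 for Fos, Fosb, Jun and Atf3, while the control units of Ier2, Ier5 and Myc lie close together.

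Fos encodes the founding member of the FOS proteins, which cannot pair with themselves and need a JUN partner. In the order of the unit numbers, which all lists of values keep, its control units were at 468, 74.6, 48.4 and 546 CPM and its knockout-labelled units at 808, 897 and 1365 CPM. Control units 1 and 4 were close to each other and high, control units 2 and 3 were low, and all 3 knockout-labelled units were above them. The means were 284 ± 259 CPM (SD, n = 4) and 1023 ± 300 CPM (SD, n = 3). With a log2 fold change of 1.85 ± 0.95 (SE), Fos missed the edgeR threshold (adjusted p = 0.245).

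Fosb, whose product is a close relative of FOS, had the same order of units with a wider span. It was at 251, 7.13, 4.94 and 254 CPM in the control units and at 354, 601 and 631 CPM in the knockout-labelled units. The highest control unit held 51.3 times the CPM of the lowest one, and the log2 fold change of 2.04 ± 1.48 (SE) had an edgeR adjusted p of 0.403. The tables hold 1 of its 7 annotated transcripts, so the truncated splice form of FosB could not be told from the full-length one.

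Fosl2, which encodes the FOS-related protein FRA-2, was the FOS gene that passed the test. It was at 8.81, 5.86, 4.29 and 15.5 CPM in the control units and at 27.7, 44.1 and 31.1 CPM in the knockout-labelled units. Control unit 4 was the highest control unit and still lay below all 3 knockout-labelled units. Fosl2 rose 4.01-fold (log2 fold change 2.00 ± 0.42, edgeR adjusted p = 0.0234). Fosl2 lost its call when control unit 1 (adjusted p = 0.0542) or 2 (0.0667) or knockout-labelled unit 2 (0.0573) or 3 (0.0718) was left out, with edgeR log2 fold changes of 1.77 to 2.45 over the 7 fits that left out 1 unit.

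Jun encodes c-Jun, the JUN protein with the strongest transactivation, which is activated by the JNK kinases. It was at 299, 64.3, 50.7 and 378 CPM in the control units and at 672, 995 and 837 CPM in the knockout-labelled units. The means of 198 ± 165 CPM (SD, n = 4) and 835 ± 162 CPM (SD, n = 3) differed by 2.08 ± 0.81 (SE) on the log2 scale, which did not pass edgeR (adjusted p = 0.143). Jun overlaps the antisense gene Junos and the reads were not stranded, so part of its reads could belong to that gene.

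Junb encodes a JUN protein with weaker activity that is abundant in T cells. It was at 382, 225, 157 and 582 CPM in the control units and at 622, 1237 and 984 CPM in the knockout-labelled units. Control unit 4 came close to knockout-labelled unit 1, and the groups did not overlap. The log2 fold change of 1.50 ± 0.48 (SE) had an edgeR adjusted p of 0.0854. It passed when control unit 4 was left out (log2 fold change 1.90, adjusted p = 0.0399). The DESeq2 Wald test also called Junb (adjusted p = 0.0271), Jun (0.0242) and Atf3 (0.0221), beside Ier2 and Fosl2, which made 5 of the 10 genes in a test that called 12.0% of all genes as higher.

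Jund encodes the JUN protein that is present in resting cells and is the least inducible of the family. It was at 131, 103, 84.7 and 193 CPM in the control units and at 137, 216 and 160 CPM in the knockout-labelled units, so the groups overlapped. The log2 fold change was 0.42 ± 0.29 (SE; edgeR adjusted p = 0.352). Jund overlaps the antisense gene Gm11175, so its reads cannot be assigned to 1 strand either.

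Atf3 was close to absent from the control units and present in all 3 knockout-labelled units. It was at 2.75, 0, 0.150 and 2.06 CPM in the control units, which is 35, 0, 6 and 27 reads. The 0 reads of control unit 2 allow up to 0.146 CPM (3 reads, counting error only). The knockout-labelled units held 23.9, 21.3 and 21.1 CPM, or 1081, 833 and 1189 reads, and differed little among themselves. The ratio of the group means was 17.8, and the fitted log2 fold change of 4.26 ± 1.30 (SE) had an edgeR adjusted p of 0.085. It was called by limma-voom (log2 fold change 6.33, adjusted p = 0.00611), a test that called 7.34% of all genes as higher. Among the control units, 1 and 4 held nearly all of the Atf3 reads, as they held the higher values of Fos, Fosb and Jun.

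Ier2 had the smallest adjusted p of the 10 genes. It was at 52.6, 82.2, 62.5 and 72.4 CPM in the control units and at 124, 199 and 189 CPM in the knockout-labelled units. Its control units kept another order than those of Fos: unit 2 was the highest and unit 1 the lowest, and they spanned 1.56-fold. Ier2 rose 2.53-fold (log2 fold change 1.34 ± 0.20, edgeR adjusted p = 0.00378), and it passed in all 7 fits that left out 1 unit (adjusted p = 0.00312 to 0.0147). Ier5, which shares a conserved N-terminal region with Ier2, did not show this difference. It was at 131, 164, 97.5 and 148 CPM in the control units and at 169, 157 and 135 CPM in the knockout-labelled units, which overlapped (log2 fold change 0.19 ± 0.18, edgeR adjusted p = 0.497).

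Myc was at 115, 133, 145 and 89.7 CPM in the control units and at 98.7, 112 and 151 CPM in the knockout-labelled units. Both groups covered nearly the same range, with a log2 fold change of 0.00 ± 0.19 (SE; edgeR adjusted p = 0.995). Control unit 4, the highest control unit for Fos, Jun, Junb and Jund, was the lowest for Myc. The sign of the Myc difference changed with the scaling and with the unit left out.

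**Figure D2:**
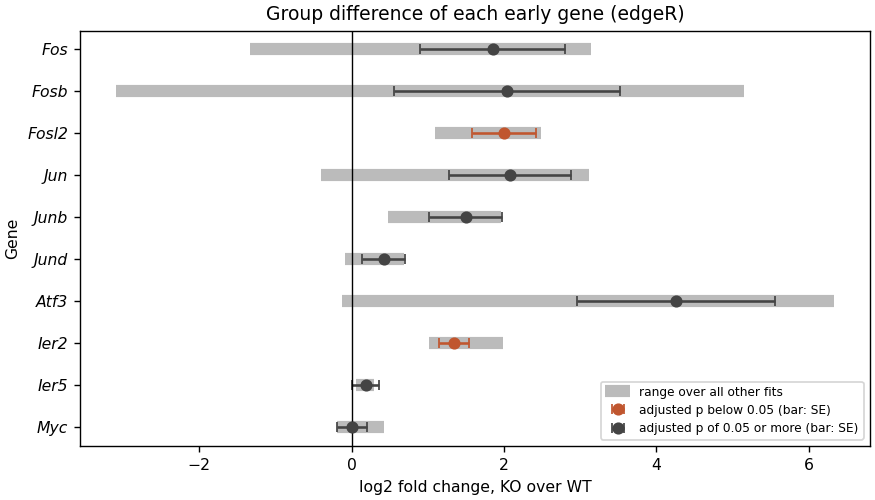
Log2 fold change of each early gene in the knockout-labelled units over the control units (points, edgeR; bars, SE), with the range over the 19 other fits in grey. Ier2 and Fosl2 (orange) had an adjusted p below 0.05; the grey ranges of Fos, Fosb, Jun, Jund, Atf3 and Myc cross 0, those of the first 5 in the fit with a covariate for other cells.

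The 2 samples of a unit were compared too; no label says whether they are separate libraries, so their difference may hold technical noise only. For Fos, Jun, Junb, Jund, Ier2, Ier5 and Myc these 2 samples differed by at most 0.14 on the log2 scale of CPM. In control unit 2, for example, Fos was at 74.0 and 75.1 CPM, and in control unit 4 at 534 and 557 CPM. The other 3 genes differed more: Atf3 by up to 1.06 (2.80 and 1.34 CPM in control unit 4), Fosb by up to 0.64 (3.86 and 6.02 CPM in control unit 3) and Fosl2 by up to 0.45 (13.1 and 17.9 CPM in control unit 4). Between control units the highest CPM was 11.3 times the lowest for Fos, 7.45 times for Jun, 3.70 times for Junb, 3.62 times for Fosl2 and 2.28 times for Jund. For Ier5 it was 1.68 times and for Myc 1.61 times. Over 9218 genes with a mean of at least 10 CPM, the median of this span was 0.45 on the log2 scale, below that of all 10 early genes (0.64 for Ier2, the lowest of them, and 3.49 for Fos). Control units 1 and 4 were also the shallowest units, with 13017008 and 13627264 reads.

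Levels of different genes were compared as TPM. Under the knockout label Fos and Junb were the most abundant of the 10, at 600 ± 194 and 482 ± 188 TPM (SD, n = 3), and these 2 overlapped. Jun followed at 232 ± 61.1 TPM, below Junb and above Fosb in all 3 units, then Fosb at 123 ± 38.4 and Ier2 at 107 ± 30.3 TPM, whose ranges overlapped. Myc (60.8 ± 12.4 TPM), Jund (53.3 ± 16.9 TPM) and Ier5 (41.3 ± 6.32 TPM) formed a group of overlapping neighbours below Ier2. Atf3 was at 16.9 ± 3.02 TPM and Fosl2 at 5.07 ± 1.70 TPM, each separated from the neighbour above. In the control units no neighbours in the order were separated. Junb led with 173 ± 91.9 TPM (SD, n = 4), followed by Fos at 140 ± 121 and Myc at 65.1 ± 15.2 TPM. Myc was above Fos in control units 2 and 3 and below it in control units 1 and 4.

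**Figure D3:**
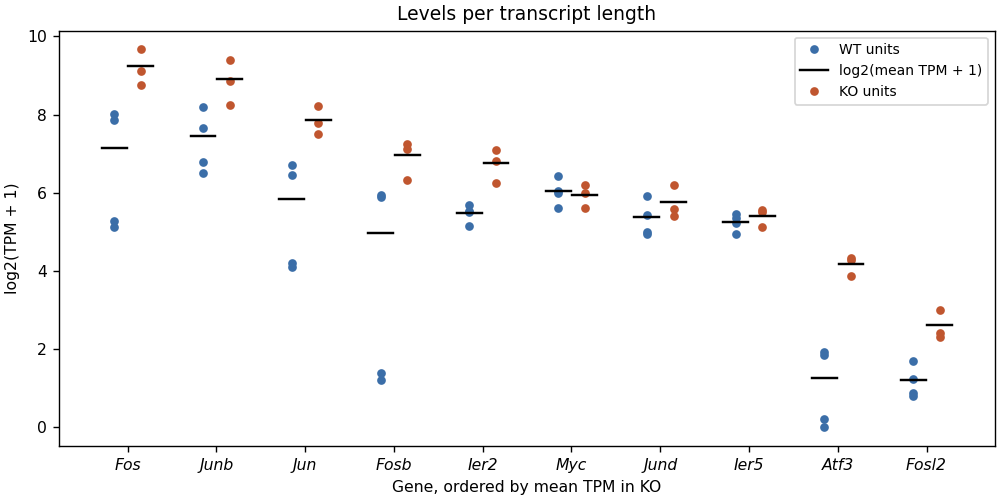
Level per transcript length of the 10 early genes as log2(TPM + 1), ordered by their mean under the knockout label; points are units and black lines the log2 of the group mean plus 1. Fos and Junb are highest and Fosl2 is lowest under the knockout label, and the blue control points of Fos, Fosb, Jun and Atf3 fall into a high and a low pair.

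Fos lies on chromosome 12 (85473890 to 85477273, plus strand), and kallisto divided its reads among 4 annotated transcripts, of which Fos-201 (4 exons, 2108 bases) encodes the protein. Fos-201 alone was at 201, 28.8, 20.4 and 224 TPM in the control units and at 305, 377 and 476 TPM in the knockout-labelled units, so the separation did not depend on the other transcripts. Fos-202 is a processed transcript of 631 bases that starts at 85474911 inside the first intron of Fos-201, 24 bases before its exon 2 (85474935 to 85475186). It was at 3.50, 2.92, 7.21 and 2.17 TPM in the control units and at 80.4, 142 and 286 TPM in the knockout-labelled units. In reads it held 0.368%, 2.13%, 6.81% and 0.205% of the Fos total in the control units and 5.37%, 7.62% and 11.6% in the others, so control unit 3 was above knockout-labelled unit 1. The first exon of Fos-203 runs further into the same intron, from 85474691, and it held 2.98%, 6.15%, 8.34% and 3.45% of Fos reads in the control units against 1.38%, 1.65% and 1.44%. These shares were chosen for description after their values were seen, and they rest on kallisto's division of reads that fit several transcripts.

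**Figure D4:**
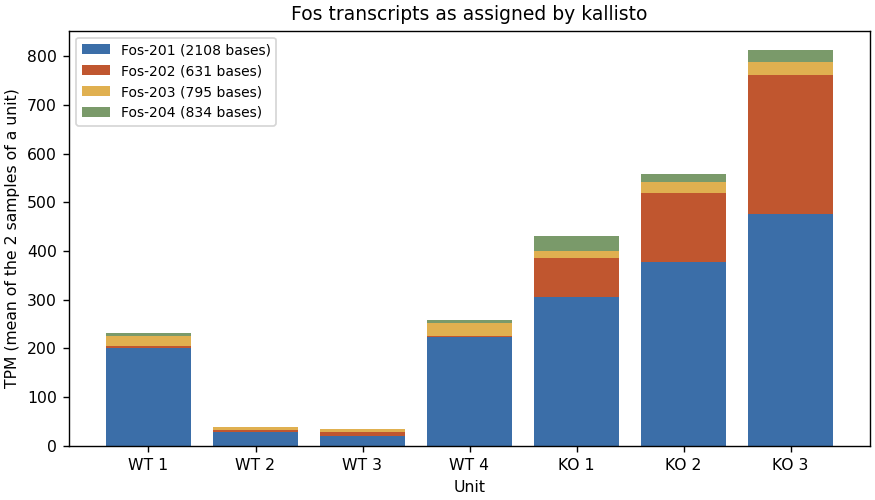
TPM of the 4 Fos transcripts in each unit, stacked, with the length of each transcript in the legend. The protein-coding Fos-201 makes up most of every bar, and Fos-202 reaches 80.4 to 286 TPM in the knockout-labelled units.

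Likeness to Fos over the 7 units was ranked by Pearson's r of log2 CPM. Among the other 9 early genes r was highest for Fosb (0.991) and Jun (0.985). Outside the 10 genes, the 8 most like Fos among 8767 named genes with a mean of at least 10 CPM were Dusp1 (r = 0.985), a phosphatase gene for MAP kinases, the immunoglobulin segment Igkv2-112 (0.985), the zinc finger gene Klf4 (0.978), the chaperone gene Hspa5 (0.978), Gem (0.974), Klf6 (0.971), Tnfaip3 (0.971), which encodes the NF-kB inhibitor A20, and Phlda1 (0.970). The units share libraries, depth and the group difference, so r here only describes likeness. Dusp1 was at 316, 71.6, 78.2 and 368 CPM in the control units and at 442, 536 and 515 CPM in the knockout-labelled units, with the pair of low control units seen for Fos. Tnfaip3 was at 1003, 159, 133 and 1136 CPM and at 1705, 2246 and 1375 CPM. Hspa5, the chaperone of the endoplasmic reticulum, spanned less, at 551, 375, 315 and 535 CPM and at 729, 636 and 727 CPM. Their adjusted p-values in edgeR lay between 0.0577 and 0.477.

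Of 14 other AP-1, ATF and CREB factors, 12 passed the filter, 2 rose and 0 fell, with a median log2 fold change of -0.16. In edgeR 7.07% of all genes rose and 6.52% fell. Mafk, a small MAF protein gene, went from 41.0 ± 10.3 to 98.5 ± 23.1 CPM (log2 fold change 1.27 ± 0.22, edgeR adjusted p = 0.00827). Batf3, a partner of JUN needed by a dendritic cell lineage, rose at a trace level, from 0.0187 ± 0.0375 to 0.718 ± 0.127 CPM. In the same units dendritic cell markers summed to 1.15 to 4.88 TPM in the controls and 12.5 to 25.9 TPM under the knockout label; their part in the Batf3 value was not tested. Batf, the AP-1 factor of activated T cells, was at 18.7 ± 0.653 and 14.3 ± 0.793 CPM without passing (edgeR adjusted p = 0.142).

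Among 22 other early genes, 21 passed the filter, 9 rose and 0 fell, beside 7.07% and 6.52% of all genes. The median log2 fold change was 1.09. Egr1, a zinc finger factor gene, rose by 1.31 ± 0.14 on the log2 scale, Ier3 by 5.37 ± 0.61 from a level of 0.251 ± 0.228 CPM, Zfp36 by 1.38 ± 0.17 and Klf2 by 1.09 ± 0.21 (edgeR adjusted p = 0.000851, 0.00116, 0.00158 and 0.011). This list holds genes already known from these samples to be higher, so its count is no independent evidence for the 10 genes.

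In the list of the ERK cascade and serum response factor 0 of 22 genes rose and 2 fell, among them Rps6ka3, the gene of the kinase RSK2, which changed by -0.46 ± 0.14 on the log2 scale (edgeR adjusted p = 0.0492). In the JNK and p38 list 3 of 22 rose, of which Gadd45b was also counted in the list of other early genes, and 1 fell. Gadd45a, a stress-induced activator of these routes, went from 10.5 ± 2.26 to 22.6 ± 2.23 CPM and its relative Gadd45b from 14.2 ± 5.01 to 27.5 ± 3.55 CPM, Mapk13 rose at a trace level, and Map3k5, the gene of ASK1, fell by 0.53 ± 0.13 on the log2 scale. The median log2 fold changes of the 2 lists were -0.03 and 0.16. Over all genes tested with edgeR, 7.07% rose and 6.52% fell.

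Around Myc, 2 of 12 genes of the MAX network rose, Zbtb17 from 28.9 ± 2.68 to 42.8 ± 6.62 CPM and Mycn, at a trace level, from 0.0693 ± 0.0808 to 1.68 ± 0.132 CPM. Of 24 growth genes known as MYC targets, 0 fell and 2 rose, Ppan by 0.73 ± 0.16 and Nop56 by 0.46 ± 0.13 on the log2 scale; both act in ribosome assembly. Among 8 genes that control the turnover of JUN and MYC proteins, 0 passed the edgeR test, 0 the DESeq2 Wald test and 0 limma-voom. Of these 8, 1 had an unadjusted edgeR p below 0.05, as did 5140 of all 15775 genes. The medians of these 3 lists were 0.23, 0.19 and 0.11, and the share of all genes that rose in edgeR was 7.07%.

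Genes of heat shock and dissociation stress moved with the early genes across units. By mean log2 CPM the stress genes were at 6.75, 5.39, 5.42 and 6.71 in the control units and at 6.64, 7.08 and 7.69 in the others. The 10 early genes were at 6.49, 4.89, 4.69 and 6.73 and at 7.43, 7.87 and 7.79. Control units 1 and 4 were thus the higher control units on both lists, and on the stress list they were level with knockout-labelled unit 1. Of 16 stress genes 3 rose, among them Atf4 and Dnajb1, and 0 fell, beside 7.07% and 6.52% of all genes. Markers of monocytes and macrophages were at 72.2, 8.11, 8.66 and 17.3 TPM in the control units and at 284, 137 and 350 TPM in the others. Fos and Jun are also expressed by monocytes and other cells; the part of stress or of other cells in the early gene values was not tested beyond the covariate fit. With a covariate from B cell and myeloid markers, which itself separated the groups, 0 of the 10 genes and 22 of all genes passed edgeR. Ier2 then had a log2 fold change of 1.99 (adjusted p = 0.0798) and was the 1 gene of the 10 with an unadjusted p below 0.05. Over all genes, 2797 of 15775 had an unadjusted edgeR p below 0.05 in that fit.

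**Figure D5:**
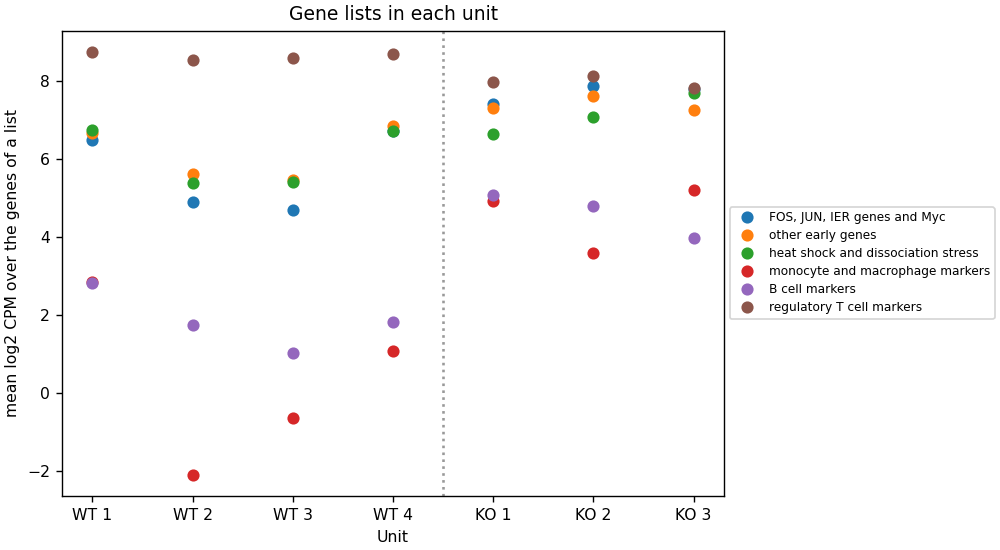
Mean log2 CPM over the genes of 6 lists in each unit, with the control units to the left of the dotted line and the knockout-labelled units to the right. The early genes and the stress genes are lower in control units 2 and 3 than in 1 and 4, regulatory T cell markers are lower under the knockout label, and monocyte and B cell markers are higher.

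All 10 genes have a main transcript with at least 50% GC (50.2% in Atf3 to 67.2% in Jund). Genes of that class had a median log2 fold change of 0.26 and 10.4% of them were higher, against -0.18 and 3.97% of genes under 50% GC. With an offset for GC content and length, Ier2 (log2 fold change 1.02, edgeR adjusted p = 0.00754) and Fosl2 (1.78, 0.0459) still passed. On the same strand, at most 0.12% of the 31-base words of any of the 10 genes occur in another gene. Words of the opposite strand were not compared, so this share does not cover the overlaps of Jun and Jund with antisense genes.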

How the data were processed

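The authors ran kallisto against GRCm38 transcripts, per the submitters' processing notes; its version and the annotation are not stated in the sources used here. The deposited expected counts are estimated reads per transcript, not normalized, and the deposited TPM values are scaled by effective length. Lengths and effective lengths (other values deposited beside them) did not differ between the 14 tables. The kit did not mark the strand, per the labels' protocols.

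Transcripts were matched to GENCODE M21; 2079 of 88198 had no gene and held 1.17% to 1.28% of a sample's reads. Counts were summed per gene and over the 2 samples that share the first number of a title (a unit), then rounded. edgeR 4.0.16 was used with TMM, filterByExpr and a robust quasi-likelihood fit on group, with p adjusted by Benjamini-Hochberg over all genes; limma 3.58.1 and DESeq2 1.42.0 were alternatives. SEs come from the F statistic. The step was tested on simulated data. P-values measure the spread between units, which may be technical. The 10 genes and the lists were chosen with earlier results of these data known. The named genes are the 10, up to 4 called genes with the smallest adjusted p of each list, and the 8 others most like Fos; Batf is named outside this rule, after its value was seen. Some genes that this rule takes are not reported here.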

Additional observations from a re-analysis of the deposited data

How the results depend on the processing

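Of 190 log2 fold changes of the 10 genes under 19 alternatives, 164 kept direction and side of the threshold, 5 became calls, 6 lost the call and 15 changed sign. All genes changed numbered 2144 with edgeR, 3546 with the DESeq2 Wald test, 22 with the covariate for other cells and 758 to 1905 without 1 unit. The early genes called numbered 2, 5 with DESeq2, 0 with the covariate and 1 to 3 without 1 unit. With the covariate, log2 fold changes turned to -1.34 (Fos), -3.09 (Fosb), -0.40 (Jun), -0.093 (Jund) and -0.13 (Atf3); the covariate separates the groups, which leaves little to tell them apart. That of Myc was -0.005 with DESeq2 size factors, -0.005 with the DESeq2 Wald test, -0.009 with limma-voom, -0.17 with the GC and length offset, -0.029 with the effective-length offset, -0.13 with the replicate block, -0.006 with transcripts of at least 1 TPM, and -0.19 to 0.12 without 1 unit; the cause was not tested. Units with the same number were not paired (correlations of their deviations 0.0275, -0.123 and -0.0543); with the number as a replicate block 612 genes changed, and 2 of the early genes. Ranked by CPM and not TPM, 13 of 20 places in the orders of levels moved. Few reads limit Atf3 in the control units (35, 0, 6 and 27), while Fosl2 had 112 to 204 reads there.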
